A study of Mus musculus with 24 samples.

Results

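The genes of the mouse major histocompatibility complex (MHC, called H2 in mice) were examined in liver RNA. Members were all genes whose symbol begins with H2-, together with B2m, Cd74 and Ciita, and they numbered 46 of 15582 genes. They comprised 3 classical class I genes, 29 nonclassical class I genes, 5 class II genes, 5 nonclassical class II genes, 3 partner genes elsewhere in the genome and H2-Ke6, which carries the locus name only. RNA was sequenced from frozen liver, lobes mixed, of male B6C3F1 mice, the F1 hybrid of C57BL/6 and C3H, aged 4 weeks. For 6 days their drinking water held dichloroacetic acid (DCA), which forms when water is chlorinated, at 0 (control), 1, 2 or 3.5 g/L, with 6 libraries per dose and 24 in all. Whether every library stems from a separate mouse is not stated in the labels, and p-values then reflect only how much these samples vary. Libraries are named here by dose and by the number in their title.

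Class I molecules show peptides from inside the cell to CD8 T cells and need the light chain B2m to reach the surface. Class II molecules show peptides from outside the cell to CD4 T cells, are carried to the loading compartment by the invariant chain Cd74, and are made mainly by B cells, dendritic cells and macrophages under the transactivator Ciita. C57BL/6 mice carry the b haplotype of the locus and C3H mice the k haplotype, so hybrids hold copies of each, while the sequences printed here are those of the reference strain C57BL/6J. Class I genes are near-copies of one another, and reads can be assigned to the wrong member, so levels of single class I genes are uncertain where stated.

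Promoters are shown for the most abundant members of the main classes and for B2m, because these genes moved differently with dose. Each is the stretch of 250 bases before the start site, from RefSeq (GRCm38.p6), written 5′ to 3′ along the gene. Capitals mark matches on either strand to the CCAAT box and to the kappa B motif GGGGATTCC. They also mark matches to GAAANNGAA, a form of the interferon-response motif, and to the cyclic AMP response motif TGACGTCA. Other forms and spacings stay in lower case. The windows are chr17:34000348-34000597 on the minus strand for H2-K1, chr17:35262844-35263093 on the plus strand for H2-D1 and chr2:122147437-122147686 on the plus strand for B2m. For H2-T23 the window is chr17:36032702-36032951 on the minus strand, for H2-Q10 it is chr17:35469839-35470088 on the plus strand, and for H2-Aa it is chr17:34287824-34288073 on the minus strand.
H2-K1: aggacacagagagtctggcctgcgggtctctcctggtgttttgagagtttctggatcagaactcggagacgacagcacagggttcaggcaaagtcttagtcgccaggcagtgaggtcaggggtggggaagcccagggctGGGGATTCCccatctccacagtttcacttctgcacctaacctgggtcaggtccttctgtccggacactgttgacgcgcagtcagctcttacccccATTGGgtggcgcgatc
H2-D1: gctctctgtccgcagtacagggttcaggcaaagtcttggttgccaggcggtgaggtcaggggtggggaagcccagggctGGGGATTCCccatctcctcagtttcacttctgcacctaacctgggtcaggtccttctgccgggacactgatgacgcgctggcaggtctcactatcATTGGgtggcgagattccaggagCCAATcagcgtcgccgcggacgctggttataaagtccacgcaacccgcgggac
B2m: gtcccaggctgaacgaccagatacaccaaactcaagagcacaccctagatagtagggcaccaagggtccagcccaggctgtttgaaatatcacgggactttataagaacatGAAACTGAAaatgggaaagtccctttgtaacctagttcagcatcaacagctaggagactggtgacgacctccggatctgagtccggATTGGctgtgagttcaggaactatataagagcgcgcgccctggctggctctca
H2-T23: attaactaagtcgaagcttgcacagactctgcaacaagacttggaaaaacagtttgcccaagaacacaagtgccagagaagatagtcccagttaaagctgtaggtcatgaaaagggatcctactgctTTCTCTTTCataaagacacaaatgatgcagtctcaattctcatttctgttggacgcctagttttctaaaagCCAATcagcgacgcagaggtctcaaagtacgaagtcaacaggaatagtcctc
H2-Q10: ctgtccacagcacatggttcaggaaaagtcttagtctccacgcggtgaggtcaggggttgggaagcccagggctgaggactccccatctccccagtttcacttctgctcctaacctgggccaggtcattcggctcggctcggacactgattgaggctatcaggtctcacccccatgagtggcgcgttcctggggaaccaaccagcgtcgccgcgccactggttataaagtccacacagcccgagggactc
H2-Aa: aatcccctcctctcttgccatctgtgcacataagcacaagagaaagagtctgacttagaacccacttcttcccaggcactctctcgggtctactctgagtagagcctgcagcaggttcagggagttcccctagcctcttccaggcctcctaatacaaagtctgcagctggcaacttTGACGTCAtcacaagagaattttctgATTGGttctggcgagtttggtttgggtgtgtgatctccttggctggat

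GGGGATTCC was found in the windows of H2-K1 and H2-D1, beginning 111 and 171 bases before the start. Of all 32851 promoters of this length, 70 (0.213%) held it, and 4 of the 32 members with a promoter sequence did, the others being H2-Q6 and H2-Q7. GAAANNGAA lay in those of B2m and H2-T23, also in that of H2-T22, and in 7.13% of all promoters. TGACGTCA was found before H2-Aa alone among the members, and in 1.55% of all promoters. CCAAT was common, in 29 of 32 members with a sequence and in 33.8% of all promoters. H2-Q10 held none of the 4 motifs, which says only that these letters are not in this window.

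Coordinates of genes are those of GENCODE M21 (GRCm38), whose starts can differ from the RefSeq starts used for the promoter windows. By GENCODE the window of H2-D1 lies inside the gene, and that of H2-T23 overlaps its gene. Levels are RPKM, reads scaled to gene length and to the mapped reads of the library, which allow genes to be compared per length. The most abundant members were B2m and H2-Q10, a class I gene of the liver whose product is secreted, with medians over the 24 libraries of 431 and 422 RPKM. H2-K1 (130 RPKM) and H2-D1 (78.3 RPKM), the classical class I heavy chains, came next, followed by H2-T23 (40.3 RPKM), which encodes Qa-1, a ligand of the NKG2A receptor of NK cells. All other members had medians below 13 RPKM. Of the 46 members, 27 reached 0.5 RPKM in a minimum of 6 libraries and were tested. The other 19 included 7 of the H2-M family at 0 in every library, and their highest values were 3.11 RPKM for H2-T10, 1.29 for H2-DMb2 and 0.899 for H2-L. The filter lay close to H2-DMb1, at 0.5 RPKM or more in 9 libraries, and H2-T10, in 4 libraries.

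The deposited values carry a trace of how reads were assigned. A gene counted by whole reads shows values that are whole multiples of what 1 read is worth, after relative depth, which ran from 0.951 to 1.131 between libraries, is taken out. Among the members, 16 lay on whole reads, with all values or all but 1 within 0.1 of a read, 16 did not, 7 could not be judged and 7 were at 0. All 5 class II genes, Cd74, Ciita, H2-DMa, H2-Oa and H2-Ob were on whole reads, with 89 to 291 reads per library for H2-Aa and 266 to 810 for Cd74. Those off whole reads were H2-L, 13 nonclassical class I genes and the pair H2-DMb1 and H2-DMb2. The 7 not judged were B2m, H2-K1, H2-D1, H2-T23 and H2-Q10, with too many reads, and H2-M5 and H2-T3, with too few values. For these, the most abundant members included, the values do not show how reads were assigned.

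**Figure D1:**
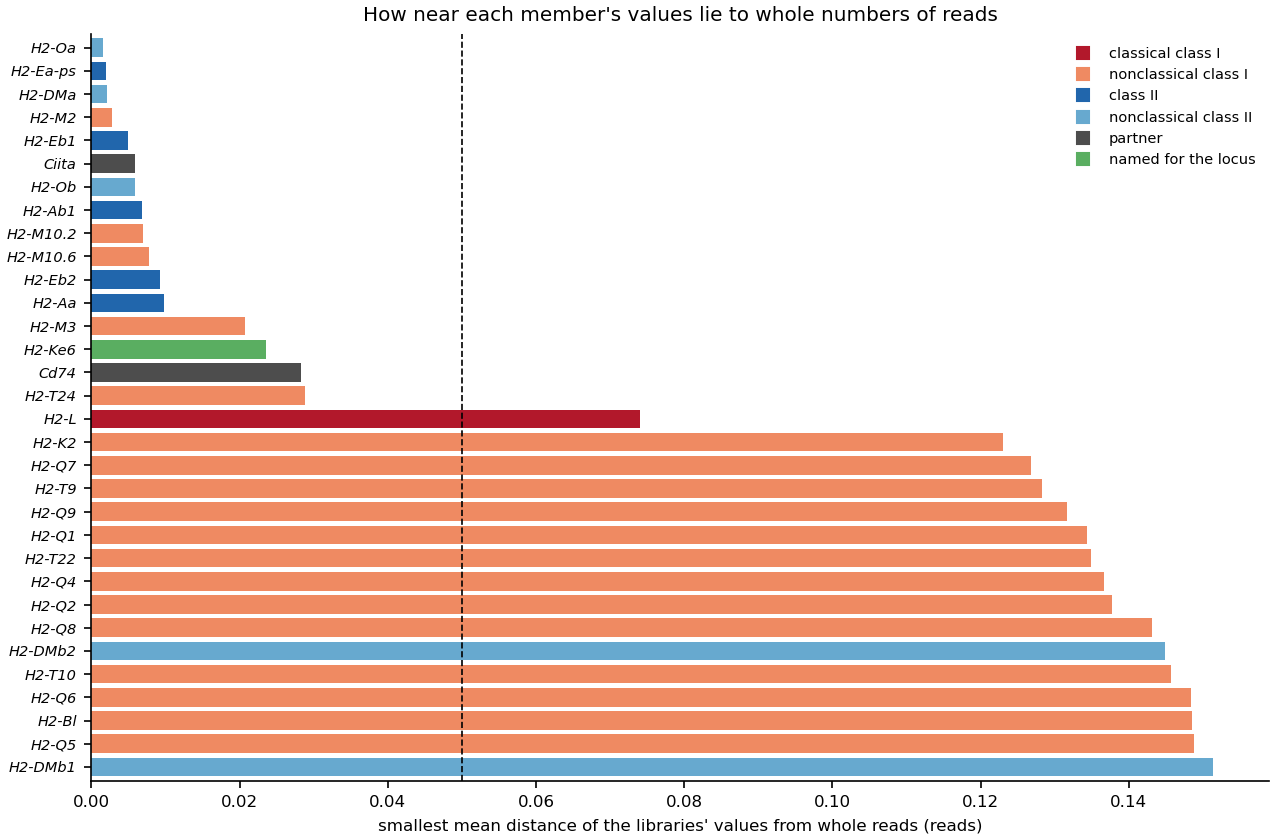
Mean distance of each member's values from the nearest whole number of reads (x axis, in reads), for members that could be judged, coloured by class. The dashed line is the limit of 0.05 reads for a gene called on whole reads: the 16 genes to its left include all class II genes, and the 16 beyond it are mostly nonclassical class I genes.

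Sequence shared between genes was counted separately. In the GENCODE M21 transcripts, 44.7% of the 50-base words of H2-T22 and 42.9% of those of H2-T10 occur in another gene, most of them in each other. The values were 35.4% for H2-Q5, 34.9% for H2-Q7, 32.0% for H2-Q6, 28.8% for H2-T23, 24.3% for H2-Q4, 14.3% for H2-D1, 8.8% for H2-K1, 8.0% for H2-Q10 and 3.2% for H2-T24. The count did not sort genes as the reads did, since H2-Ke6 shared 62.9% of its words and H2-M10.2 12.4% and both lay on whole reads, while H2-Bl shared 0.0% and H2-Q2 8.7% and both did not. No word of the class II genes, Cd74, Ciita or B2m was shared. H2-L, H2-Q8, H2-Q9 and H2-T9 are not in that annotation. H2-Q6 ranged 16.9-fold and H2-Q8 7.20-fold over the libraries, while their sum ranged 1.80-fold, from 1.64 to 2.95 RPKM. The sum varied less than either gene, so the sum is described by dose in place of the single levels.

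Before any comparison by dose, 4 libraries stood apart at the locus, namely control 6 and numbers 73, 74 and 75 of 2 g/L. H2-T10, whose product is a ligand of gamma delta T cells like that of its near-copy H2-T22, was at 2.56 to 3.11 RPKM in these and at 0.0774 to 0.363 RPKM in the other 20. H2-Bl was at 1.79 to 2.53 against 0.483 to 1.04 RPKM, and H2-D1 at 102 to 116 against 55.0 to 94.5 RPKM. In the other direction, H2-T9 was at 3.26 to 6.57 against 7.37 to 13.9 RPKM, H2-T22 at 3.43 to 6.56 against 6.76 to 12.4 RPKM, and H2-Q10 at 318 to 364.7 against 365.1 to 575 RPKM. Of 6660 genes that reached 0.5 RPKM in 4 or more libraries, 16 separated these 4 libraries from the rest, and 12 of the 16 lie on chromosome 17, which holds 4.916% of the genes with a position. The 12 span the locus and reach beyond it, since 1600002H07Rik (chromosome 17, 3.81 to 8.77 against 12.5 to 23.8 RPKM) is outside it. Enpp5 is outside it too, but its gap was narrow (8.77 to 9.61 against 5.30 to 8.70 RPKM). Of the 16, 6 are members, and 3 lie on other chromosomes. One of these 3 is Hamp2 (chromosome 7, 4.11 to 8.99 against 11.3 to 61.5 RPKM). The 4 libraries were recognised from these values and not from any label, so they were never averaged or tested as a group. Calls are given with them and without them. Since H2-T10, H2-Bl, H2-D1, H2-T9, H2-T22 and H2-Q10 are among the values by which the 4 were recognised, leaving the 4 out shifts these genes by that choice, and their values without the 4 are descriptions and not tests. Control 6 was also the highest or lowest control for H2-T23, H2-K1, H2-T24, H2-Q4, H2-Q7, H2-Q9, H2-Ke6, H2-K2, H2-Q6 and the class II gene H2-Eb1. Values and calls of these genes without the 4 depend on the same choice and are no independent test. H2-Eb1 was at 0.481 RPKM in control 6, with the next control at 1.01. In libraries 73, 74 and 75 it was at 0.361, 0.402 and 0.996 RPKM.

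**Figure D2:**
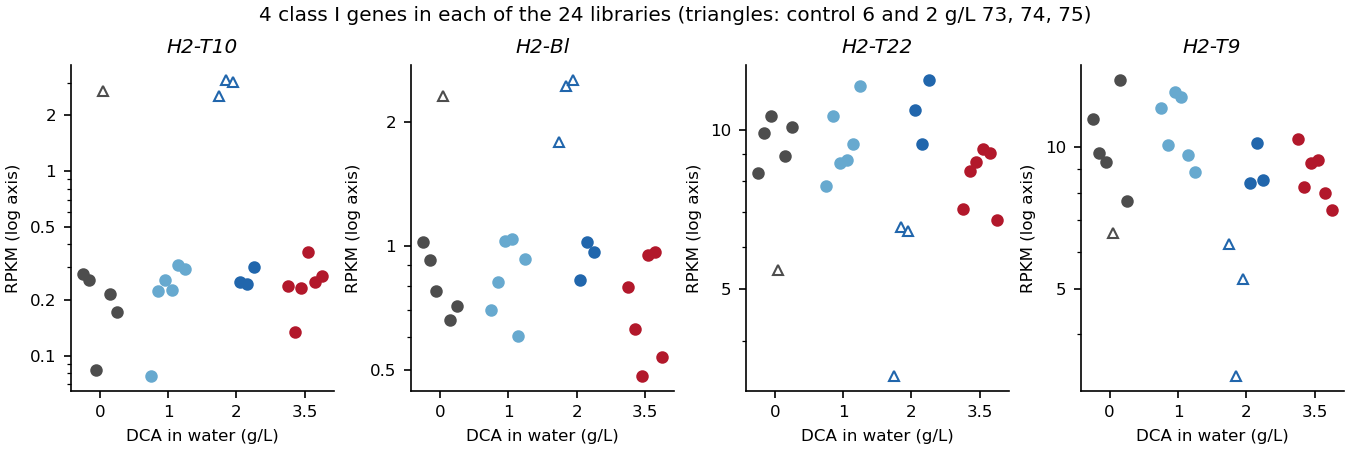
H2-T10, H2-Bl, H2-T22 and H2-T9 in each library (y axis, RPKM on a log axis) by dose (x axis). Triangles mark control 6 and the 2 g/L libraries 73, 74 and 75, which lie above all other libraries for H2-T10 and H2-Bl and below them for H2-T22 and H2-T9.

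The next comparisons ask which members differed between doses. A gene is called when the p-value of limma on log2(RPKM + 1), adjusted by Benjamini-Hochberg over the 6540 genes tested, is under 0.05, and folds are differences on that scale with their standard error (SE), n = 6 per dose. At 1 g/L no member was called by limma against control, with or without the 4 libraries, and with all libraries none had an unadjusted p under 0.05, while 8.35% of all tested genes were higher and 3.03% lower. At 2 g/L 6 members were lower and 0 higher, where 10% of all genes were lower and 41.9% higher. For 3.5 g/L 8 members were lower and 1 was higher, where 12.9% of all genes were lower and 38.6% higher. The median log2 fold of the tested members was 0.00 at 2 g/L and −0.11 at 3.5 g/L, beside 0.12 and 0.10 over all genes. The title tag, L1, L2 or L3, changes with dose and cannot be told apart from dose at 3.5 g/L, where all libraries carry L3 and no control does. All controls carry L1 and all libraries of 2 g/L carry L2. Only 1 g/L, with 3 libraries of L1 and 3 of L2, links these tags. With the tag as a term and 3.5 g/L left out, no member was called at 2 g/L by limma, where 9.54% of all genes were higher and 3.67% lower. That fit rests on the link through 1 g/L and has a larger SE, for B2m 0.13 in place of 0.07. All doses were compared with the same 6 controls.

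Without the 4 libraries that stand apart, 3 members were lower and H2-Q10 was higher at 2 g/L, where 5.21% of all genes were lower and 32.2% higher. Compared at 3.5 g/L, 9 were lower and 1 was higher, where 12.1% of all genes were lower and 37.5% higher. The members called at 3.5 g/L with all libraries were all among these 10. H2-Q7 was called only here, where control 6, its lowest control, is left out. H2-D1 and H2-Q10 are among the genes by which the 4 were recognised, so their calls here are not tests. The calls here of H2-T23, H2-K1, H2-T24, H2-Q4, H2-Q7, H2-Q9 and H2-Ke6 depend on the same choice, as stated above. In bulk liver, fewer cells of a type and less RNA per cell cannot be told apart.

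**Figure D3:**
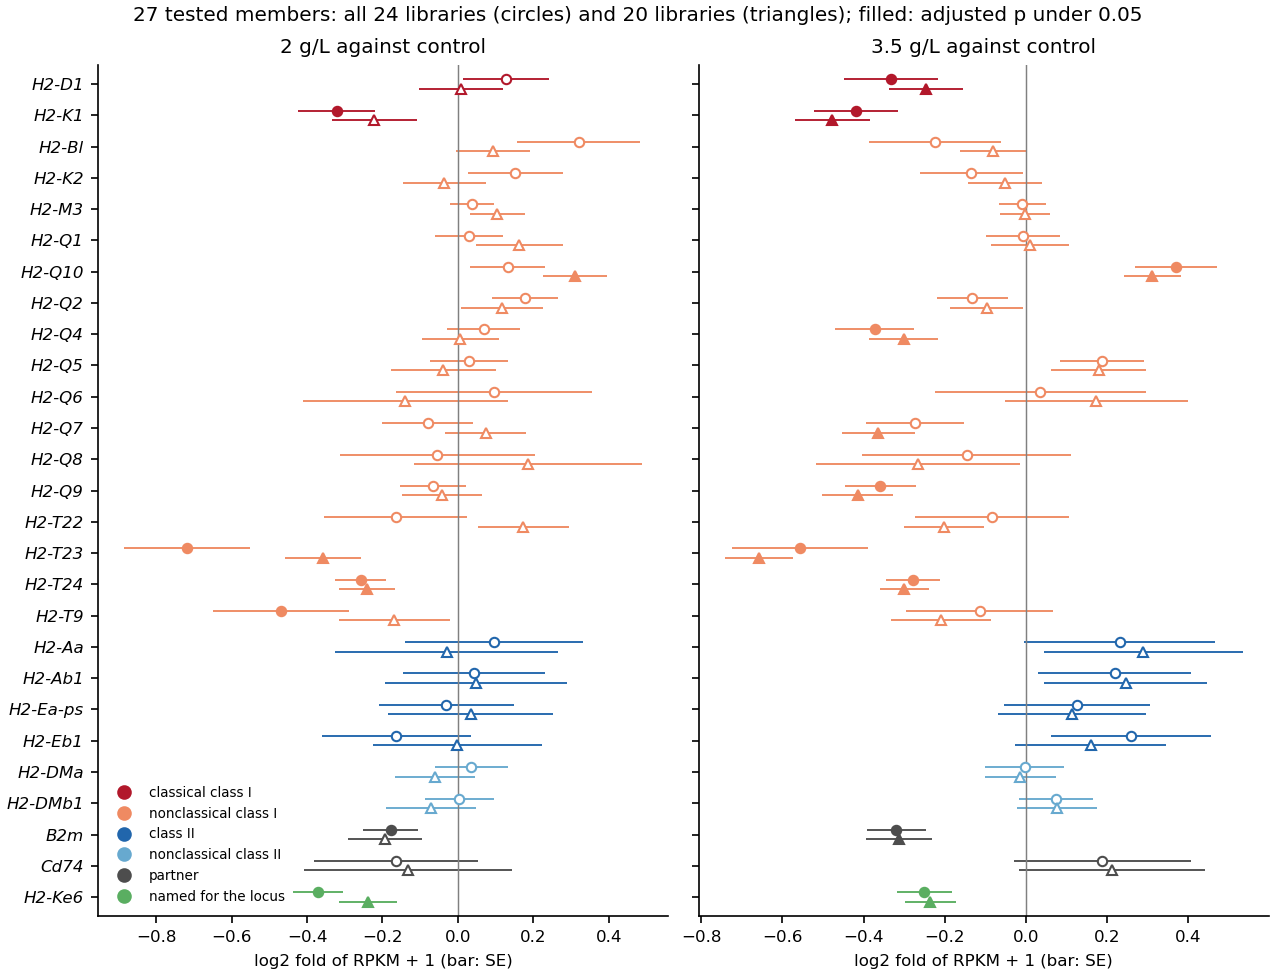
Log2 fold against control (x axis, on RPKM + 1, bars are SE) of the 27 tested members, by class, at 2 g/L (left) and 3.5 g/L (right). Circles use all 24 libraries, triangles the 20 without the 4 that stand apart, and filled symbols have an adjusted p under 0.05: at 3.5 g/L H2-T23, H2-K1 and B2m lie left of 0, H2-Q10 lies right of 0, and no class II gene is filled.

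Both tested classical class I genes fell at 3.5 g/L. H2-K1 (chromosome 17, 33996017 to 34000347, minus strand) was at 124 to 174 RPKM in the controls (median 153), 129 to 162 at 1 g/L (median 140), 100.2 to 163 at 2 g/L (median 118) and 96.0 to 133 at 3.5 g/L (median 118). The highest dose had 5 of 6 libraries below all controls, and the lowest control was control 6. Its log2 fold was −0.42 (SE 0.10, limma adjusted p = 0.00151) at 3.5 g/L and −0.32 (SE 0.10, limma adjusted p = 0.0114) at 2 g/L. Without the 4 libraries, which hold the lowest control, the fold at 3.5 g/L was −0.48, a description and not a test. At 2 g/L it was then −0.22 and was no longer called (limma adjusted p = 0.128).

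H2-D1 (chromosome 17, 35262730 to 35267499, plus strand) was at 75.1 to 116 RPKM in the controls (median 81.8), 67.3 to 86.5 at 1 g/L (median 75.6), 73.1 to 112 at 2 g/L (median 98.3) and 55.0 to 82.0 at 3.5 g/L (median 68.4). Its high values at 0 and 2 g/L were those of the 4 libraries, while 5 of 6 libraries at 3.5 g/L were below all controls. At 3.5 g/L its log2 fold was −0.33 (SE 0.12, limma adjusted p = 0.0187) with all libraries and −0.25 without the 4. That call was lost without control 6 (−0.25, limma adjusted p = 0.0619) or without 3.5 g/L library 102 (−0.27, limma adjusted p = 0.0563).

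B2m (chromosome 2, 122147686 to 122153083, plus strand), the light chain that all these heavy chains need, fell with them. It was at 426 to 524 RPKM in the controls (median 484), 409 to 543 at 1 g/L (median 479), 403 to 447 at 2 g/L (median 413) and 339.6 to 441 at 3.5 g/L (median 374). At 3.5 g/L 5 of 6 libraries were below all controls. Its log2 fold was −0.32 (SE 0.07, limma adjusted p = 0.000805), and −0.31 (limma adjusted p = 0.00318) without the 4 libraries. At 2 g/L it was −0.18 (limma adjusted p = 0.0452), a call that was lost without the 4 libraries (−0.19, limma adjusted p = 0.125) and when any of 9 of the 12 libraries compared was left out by itself.

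**Figure D4:**
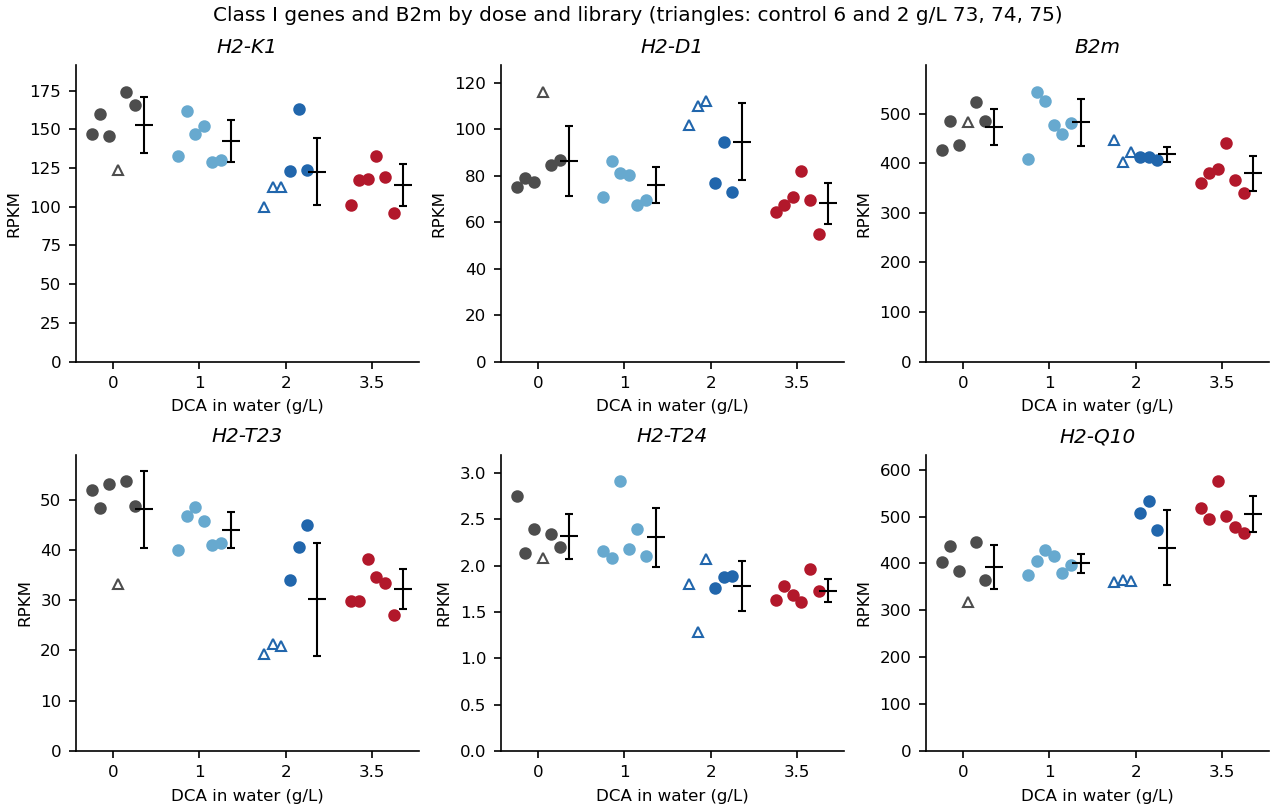
H2-K1, H2-D1, B2m, H2-T23, H2-T24 and H2-Q10 by dose (x axis, g/L) in each library (y axis, RPKM, from 0). Triangles are control 6 and the 2 g/L libraries 73, 74 and 75, and bars give the mean ± SD of all 6 libraries: H2-T24 and H2-Q10 at 3.5 g/L do not overlap the controls.

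Among the 16 tested nonclassical class I genes, 4 fell and 1 rose at 3.5 g/L, where 12.9% of all genes were lower and 38.6% higher. H2-T23 had the largest fall. It was at 33.1 to 53.6 RPKM in the controls (median 50.2), 40.04 to 48.6 at 1 g/L (median 43.6), 19.3 to 45.0 at 2 g/L (median 27.6) and 27.1 to 38.2 at 3.5 g/L (median 31.7). Control 6 was the lowest control, and the 3 lowest libraries of all were numbers 73, 74 and 75. The log2 fold at 3.5 g/L was −0.56 (SE 0.17, limma adjusted p = 0.00738) with all libraries. Without the 4, which hold the lowest control, it was −0.66 (SE 0.08), a description and not a test. At 2 g/L the fold was −0.72 (limma adjusted p = 0.000991) with all libraries, and −0.36 without the 4, again as a description. H2-T23 without the 4 libraries was at 48.3 to 53.6 RPKM in the 5 controls, 34.0 to 45.0 in the 3 libraries of 2 g/L and 27.1 to 38.2 at 3.5 g/L. The controls then overlapped neither, but with all libraries they overlapped both. The share of all genes separated in these fewer libraries was not counted.

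H2-T24, whose reads were whole and whose sequence is little shared, fell with little spread. Its mean at 3.5 g/L was 74.7% of the control mean, beside 74.6% for H2-K1, 80.2% for B2m and 66.9% for H2-T23. Its log2 fold is smaller because 1 RPKM is added to a low level. It was at 2.078 to 2.75 RPKM in the controls (median 2.27), 2.08 to 2.91 at 1 g/L (median 2.17), 1.28 to 2.075 at 2 g/L (median 1.84) and 1.61 to 1.96 at 3.5 g/L (median 1.71). All 6 libraries at 2 g/L and all 6 at 3.5 g/L were below every control, as they were for H2-Ke6, while 3.1% and 5.86% of all tested genes were lower without overlap at these doses. The log2 fold was −0.26 (SE 0.07, limma adjusted p = 0.00259) at 2 g/L and −0.28 (SE 0.07, limma adjusted p = 0.00129) at 3.5 g/L, and −0.24 and −0.30 without the 4 libraries.

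H2-Q4 was at 6.56 to 9.91 RPKM in the controls (median 7.48), 6.16 to 7.32 at 1 g/L (median 6.98), 5.87 to 9.75 at 2 g/L (median 8.37) and 4.91 to 6.87 at 3.5 g/L (median 5.38). H2-Q9, which with H2-Q7 encodes Qa-2, was at 2.17 to 3.54 RPKM in the controls (median 2.90), 2.23 to 3.04 at 1 g/L (median 2.71), 2.31 to 3.69 at 2 g/L (median 2.55) and 1.71 to 2.47 at 3.5 g/L (median 2.00). For each of them 5 of 6 libraries at 3.5 g/L were below every control. Their log2 folds there were −0.37 (SE 0.10, limma adjusted p = 0.00255) for H2-Q4 and −0.36 (SE 0.09, limma adjusted p = 0.0016) for H2-Q9. Without the 4 libraries, which hold the highest control of H2-Q4 and the lowest of H2-Q9, they were −0.30 and −0.41, as descriptions and not tests. Neither gene was on whole reads, so the sum of H2-Q7 and H2-Q9 is given too, and it was 5.11 ± 0.99 RPKM (SD, n = 6) in the controls, and 4.86 ± 0.33, 4.79 ± 1.17 and 3.67 ± 0.53 RPKM in order of dose. H2-Q7 alone was at −0.27 (limma adjusted p = 0.0633) with all libraries. Without the 4, which include its lowest control, it was at −0.36, a description and not a test.

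H2-Q10 moved the other way. It was at 318 to 446 RPKM in the controls (median 394), 375 to 428 at 1 g/L (median 401), 359.8 to 534 at 2 g/L (median 418) and 465 to 575 at 3.5 g/L (median 498). All 6 libraries at 3.5 g/L were above every control, as in 22% of all tested genes. At 2 g/L the libraries fell in 2 sets, with 73, 74 and 75 at 359.8 to 365 RPKM and the other 3 at 472 to 534 RPKM. The log2 fold was 0.37 (SE 0.10, limma adjusted p = 0.00351) at 3.5 g/L and 0.13 (limma adjusted p = 0.28) at 2 g/L. Without the 4 libraries it was 0.31 at both doses, and the call that 2 g/L then reached came from leaving out its 3 lowest libraries, so it is no result about dose. The call at 3.5 g/L was lost with median-ratio library factors (0.22, limma adjusted p = 0.0743), which centre the all-gene median near 0 and give 23.5% of genes higher and 23.3% lower. In the controls B2m was at 426 to 524 RPKM and H2-Q10 at 318 to 446, and at 3.5 g/L every H2-Q10 value was above every B2m value.

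H2-T9 was at 6.57 to 13.9 RPKM in the controls (median 9.53), 8.85 to 13.1 at 1 g/L (median 11.1), 3.26 to 10.2 at 2 g/L (median 7.32) and 7.37 to 10.4 at 3.5 g/L (median 8.74). It was called lower at 2 g/L (log2 fold −0.47, SE 0.18, limma adjusted p = 0.0332), and without the 4 libraries it was at −0.17. The sum of H2-T9, H2-T10 and H2-T22 was 19.3 ± 2.77 RPKM (SD, n = 6) in the controls, and 20.9 ± 1.06, 16.8 ± 3.92 and 17.2 ± 1.58 RPKM in order of dose. The remaining tested nonclassical class I genes were not called against control at any dose. Their mean levels in the controls were 8.86 RPKM for H2-T22, 2.55 for H2-Q2, 2.45 for the pseudogene H2-K2, 2.11 for H2-Q1, 1.07 for H2-Bl, 0.898 for H2-Q5 and 0.569 for H2-M3, which presents formylated peptides. At 3.5 g/L these means were 8.19 RPKM for H2-T22, 2.22 for H2-Q2, 2.14 for H2-K2, 2.13 for H2-Q1, 0.727 for H2-Bl, 1.16 for H2-Q5 and 0.561 for H2-M3. The sum of H2-Q6 and H2-Q8 was 2.32 ± 0.31 RPKM (SD, n = 6) in the controls and 2.21 ± 0.38, 2.38 ± 0.55 and 2.06 ± 0.33 RPKM in order of dose.

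No class II gene was called against control at any dose. H2-Aa, the alpha chain of the A molecule and the most abundant class II gene, was at 3.38 to 5.51 RPKM in the controls (median 4.00), 2.92 to 9.37 at 1 g/L (median 5.24), 2.99 to 8.14 at 2 g/L (median 4.33) and 2.72 to 9.37 at 3.5 g/L (median 4.52). The spread within each treated dose exceeded the differences between doses, and all groups overlapped. The log2 folds at 3.5 g/L were 0.23 (SE 0.24) for H2-Aa, 0.22 (SE 0.19) for H2-Ab1, 0.13 (SE 0.18) for H2-Ea-ps and 0.26 (SE 0.20) for H2-Eb1, with limma adjusted p from 0.281 upward. The 95% intervals of these folds ran from −0.26 to 0.72 for H2-Aa, −0.17 to 0.61 for H2-Ab1, −0.24 to 0.50 for H2-Ea-ps and −0.15 to 0.67 for H2-Eb1. Without the 4 libraries the folds were 0.29, 0.25, 0.11 and 0.16 in the same order, and none was called. H2-Ab1 averaged 2.48 RPKM in the controls and 3.14 at 3.5 g/L, H2-Eb1 1.13 and 1.61, and H2-Ea-ps 1.18 and 1.42. The control mean of H2-Eb1 includes control 6, its lowest control at 0.481 RPKM. C57BL/6 mice carry a deletion at the start of the Ea gene and do not express it, whereas C3H mice do. The annotation lists it as a polymorphic pseudogene, and here it had 13 to 63 reads in every library.

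Cd74 (chromosome 18, 60803848 to 60812652, plus strand) was at 8.65 to 11.3 RPKM in the controls (median 9.59), 7.49 to 20.6 at 1 g/L (median 11.8), 6.24 to 13.3 at 2 g/L (median 7.91) and 7.05 to 19.6 at 3.5 g/L (median 9.84). It ran with the class II genes: of H2-Aa, H2-Ab1, H2-Ea-ps, H2-Eb1 and Cd74, library 53 was the highest of 1 g/L in 5 of 5, library 101 the highest of 3.5 g/L in 5 of 5 and library 75 the highest of 2 g/L in 4 of 5. Library 102 was the lowest of 3.5 g/L in 5 of 5. The log2 folds of Cd74 were 0.25, −0.17 and 0.19 in order of dose, and 0.27, −0.13 and 0.21 without the 4 libraries, and none was called. Ciita was below the filter, at 0.167 to 0.270 RPKM in the controls (median 0.208), 0.164 to 0.575 at 1 g/L (median 0.242), 0.109 to 0.319 at 2 g/L (median 0.159) and 0.092 to 0.522 at 3.5 g/L (median 0.176). Its highest values of 1 and 3.5 g/L were those of libraries 53 and 101 too.

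**Figure D5:**
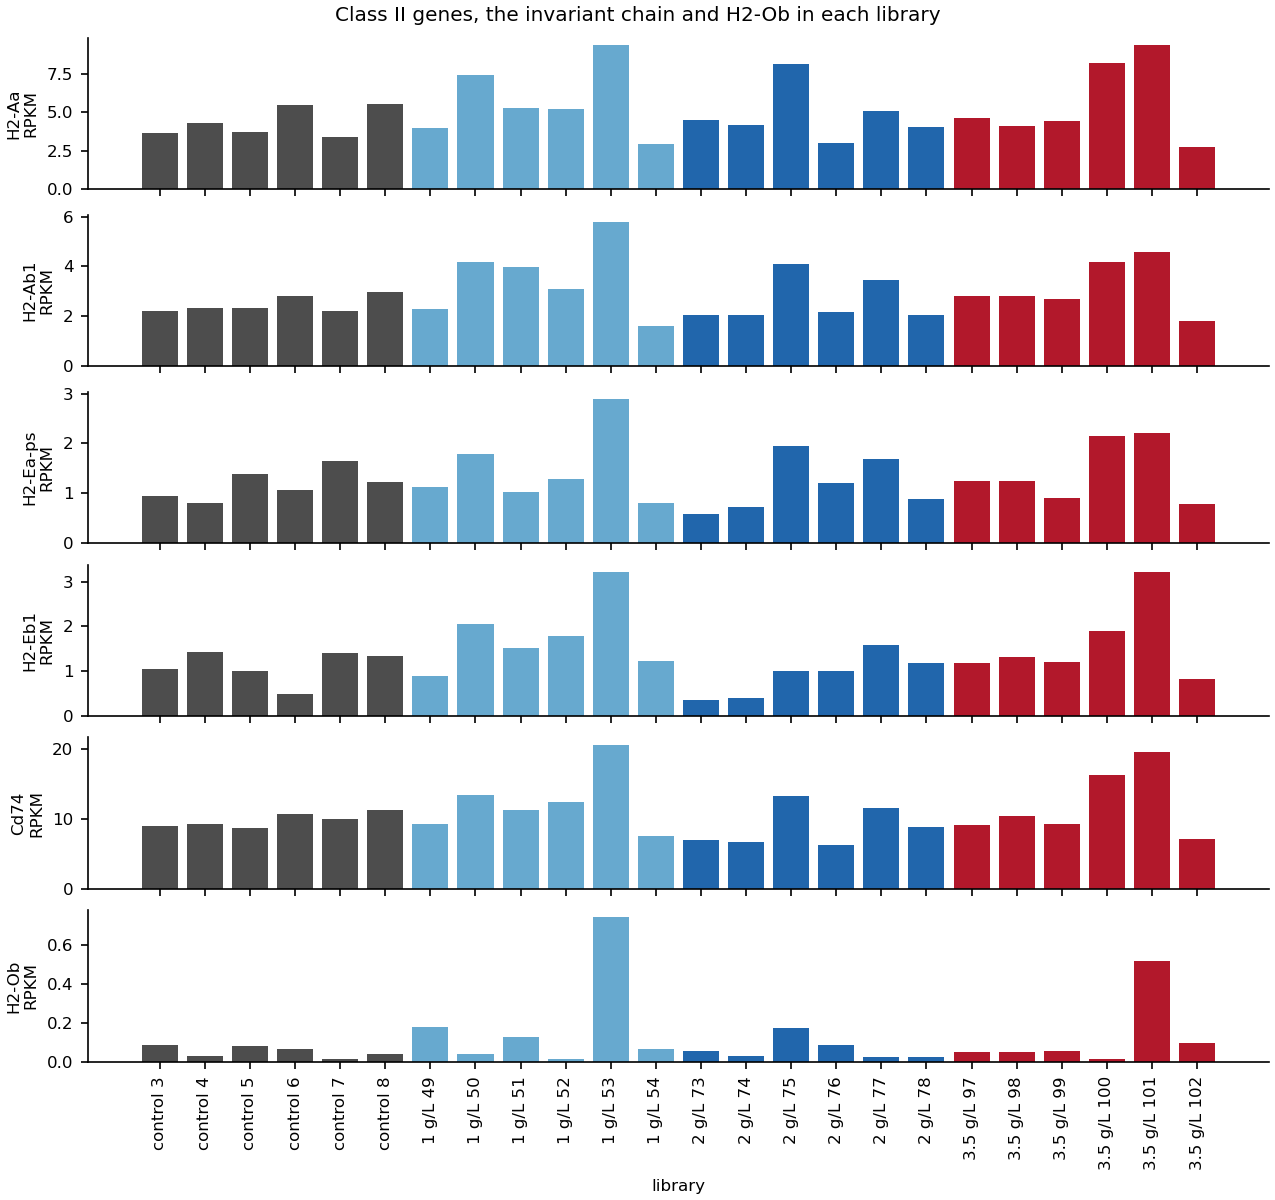
H2-Aa, H2-Ab1, H2-Ea-ps, H2-Eb1, Cd74 and H2-Ob (one panel each, y axis RPKM from 0) in each of the 24 libraries (x axis), coloured by dose. Libraries 53 (1 g/L) and 101 (3.5 g/L) are the highest of their dose in every panel, and H2-Ob is at most 0.179 RPKM elsewhere.

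Among the nonclassical class II genes, H2-DMa and H2-DMb1 encode the chains of H2-DM, which exchanges peptides on class II molecules, and H2-Oa and H2-Ob those of its inhibitor H2-O, made mainly in B cells. H2-DMa was at 0.321 to 0.711 RPKM in the controls (median 0.482), 0.422 to 0.845 at 1 g/L (median 0.554), 0.275 to 1.09 at 2 g/L (median 0.496) and 0.280 to 0.704 at 3.5 g/L (median 0.522), and all groups overlapped. It averaged 0.501 RPKM in the controls and 0.5002 at 3.5 g/L, H2-DMb1 0.395 and 0.475, and neither was called at any dose. H2-Ob was at 0.740 RPKM in library 53 and 0.516 in library 101, and at most 0.179 in the other 22. H2-DMb2 was likewise highest there, at 1.29 and 0.707 RPKM. Library 53 was also highest of all libraries in 11 of 14 B cell markers and 13 of 15 T cell markers. Its summed B cell markers were 8.79 RPKM, those of library 101 were 4.74, and the medians of the 4 doses ran from 1.63 to 1.85. In these samples Cd79a and Ms4a1 were listed at 0 in 1 and 3 libraries. The part of these cells in the class II values was not tested.

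H2-Ke6 (chromosome 17, 34026033 to 34028060, minus strand) encodes a hydroxysteroid dehydrogenase and no MHC molecule, and 62.9% of its 50-base words lie in the overlapping gene model Gm20427. It was at 13.6 to 14.98 RPKM in the controls (median 14.3), 11.02 to 14.3 at 1 g/L (median 13.1), 9.15 to 12.4 at 2 g/L (median 10.8) and 10.8 to 13.5 at 3.5 g/L (median 11.9). No library of 2 or 3.5 g/L reached the lowest control. Its log2 fold was −0.37 (SE 0.07, limma adjusted p = 8.29e-05) at 2 g/L and −0.25 (SE 0.07, limma adjusted p = 0.00319) at 3.5 g/L, and −0.24 at both without the 4 libraries.

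Between treated doses, more of the calls ended without the 4 libraries, which leaves 3 libraries at 2 g/L. With fewer libraries a call can end while its fold stays. From 1 to 2 g/L, H2-Bl and H2-Q2 were higher and B2m, H2-Eb1, H2-Ke6, H2-T23, H2-T24 and H2-T9 lower (limma), where 22.7% of all genes were higher and 5.63% lower. Without the 4, none of these was called and H2-Q10 alone was, as higher, by the choice of libraries stated above, where 9.92% of all genes were higher and 1.79% lower. The log2 folds with all libraries and without the 4 were −0.20 and −0.22 for B2m and −0.25 and −0.21 for H2-T24. They were 0.35 and 0.25 for H2-Q2, −0.24 and −0.12 for H2-Ke6, and −0.52 and −0.26 for H2-Eb1. H2-T9 went from −0.66 to −0.26, H2-T23 from −0.60 to −0.14 and H2-Bl from 0.44 to 0.07. From 2 to 3.5 g/L 5 members were lower, namely H2-Bl, H2-D1, H2-Q2, H2-Q4 and H2-Q9, where 5.54% of all genes were lower and 4.79% higher. Without the 4 they were H2-Q7 and H2-Q9, where 2.91% were. Over dose as a line, 8 members fell and H2-Q10 rose, where 13.6% of all genes fell and 40.3% rose. Without the 4, 9 fell and H2-Q10 rose, where 12.6% and 39.7% of all genes did. H2-T23 had the steepest slope, −0.19 (SE 0.05) per g/L on the log2 scale, and −0.18 without the 4.

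Genes that serve class I molecules were followed as a list. Of 15 tested genes, 4 were higher and 6 lower at 3.5 g/L (limma), with a median log2 fold of −0.04, where 38.6% of all genes were higher and 12.9% lower. Without the 4 libraries, 4 were higher and 5 lower. The chaperones that fold class I heavy chains were among the lower: Calr went from 311 ± 52.8 RPKM (SD, n = 6) to 177 ± 23.3 (log2 fold −0.81) and Canx from 85.0 ± 6.89 to 61.2 ± 4.02 (−0.47), and Hspa5, an endoplasmic reticulum chaperone with many other clients, was at −0.71. Irf2 was at −0.30, while Nfyb, a subunit of the factor that binds CCAAT, was higher (0.53). The peptide transporter, tapasin and inducible proteasome genes were not analysed here.

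In the class II pathway, 2 of 16 tested genes were higher and 4 lower at 3.5 g/L, with and without the 4 libraries and beside the same shares of all genes, among them Ctss, the protease that trims the invariant chain (log2 fold −0.51, limma adjusted p = 0.00211). Of 28 tested genes of interferon signalling and its targets, 3 were higher and 11 lower at 3.5 g/L, with a median of −0.15 beside 0.10 over all genes, and without the 4 libraries the counts were the same. The interferon-inducible GTPases Gbp11 (−1.53), Gbp10 (−0.98), Ifi47 (−0.83) and Gbp6 (−0.72) were the largest, and Ifngr2, a receptor chain, was higher (0.48). At 2 g/L 6 of the 28 were higher and 5 lower, where 41.9% of all genes were higher and 10% lower. Without the 4 libraries 3 were higher and 3 lower there, and at 1 g/L none was called either way. Of 5 tested class I-like genes outside the locus, 2 were higher and 1 lower at 3.5 g/L, where 38.6% of all genes were higher and 12.9% lower. Hfe (0.30) and Fcgrt (0.27), which also pair with B2m, were higher and Azgp1 (−0.17), which does not need it, was lower.

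Markers of Kupffer cells, the liver macrophages, moved with dose as well. At 3.5 g/L 13 of 16 were lower and 0 higher (limma), with a median log2 fold of −0.38, beside 12.9% lower and 38.6% higher among all genes, and at 1 and 2 g/L none was called. Without the 4 libraries 12 were lower at 3.5 g/L and 2 at 2 g/L. Their summed level was 119 to 172 RPKM in the controls and 80.6 to 110 RPKM at 3.5 g/L, and none of them was listed at 0 in all libraries. Of 12 hepatocyte markers, 9 were lower and 2 higher at 3.5 g/L, and 8 and 2 without the 4. Of 14 markers of sinusoidal endothelium, 2 were lower. Among 6 tested markers of dendritic cells 1 was higher and 1 lower, among 8 of stellate cells 1 was higher, and without the 4 the counts were 0 higher and 1 lower in either list, and the T cell marker Cd4 was lower (−0.43). No NK cell, monocyte or neutrophil marker passed the filter, and the 1 tested marker each of B cells and cholangiocytes was not called. The part of these cell types in the class I values was not tested.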

How the data were processed

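The members and gene lists were chosen with earlier results of these data known, and the 4 libraries that stand apart were recognised after seeing the data. The values were RPKM per gene and library in 1 table as the authors deposited it. Per the submitters' processing notes, CASAVA, STAR 2.4, Partek and the build mm10 were used. The annotation, the assignment of reads to near-copies and the use of strand are not given in the sources used here. Per the labels' protocols, a stranded total RNA kit was used after ribosomal RNA had been removed. Zeros stand as 1e-04 in the deposited table. The last line of the table was incomplete and was dropped with 13 lines whose symbols had become dates, which left 15582 genes. Genes after Olfr272 in symbol order were not analysed here.

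The 6540 genes that reached 0.5 RPKM in 6 or more libraries were put on the scale log2(RPKM + 1) and fitted with limma 3.58.1 (R 4.3.3), with a mean for every dose over 24 libraries and a trended spread. Benjamini-Hochberg adjustment of two-sided p-values ran over these genes, with a threshold of 0.05. A fold on this scale understates changes of low genes. On simulated data for 2 g/L against control with 6540 genes, 89 of 100 genes changed 1.5-fold and 99 of 100 changed 2-fold were recovered, with 14 false calls among 6340 unchanged genes. The changed genes were not drawn from the lowest genes, and the noise was independent between genes. These rates therefore do not cover the low members or the shared shift of the 4 libraries.

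Total depth is unknown. Relative depth came from 1259 of 3672 genes at low values whose steps were whole within 0.5%, and whole reads were judged within 0.1 of a read. A full count table was not recovered, so no count test was run. Shared words were counted in GENCODE M21 transcripts for 42 of 46 members, and promoters were matched in RefSeq for 32. Every tested member is named. Values by library were given for the highest member of each class, for members called at 2 or 3.5 g/L with an absolute log2 fold of 0.3 or more, and for B2m, Cd74 and Ciita. Of each list, at most the 6 called genes with the largest folds were named. H2-T24, H2-Bl, H2-T10, H2-T22 and library values of H2-Ob and H2-DMb2 were added after their values were seen, and the motif forms were chosen with the data known. Alternatives were other scalings, filters and pseudocounts, the spread without a trend, the title tag, 2 doses only, and leaving out each library or the 4.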

Additional observations from a re-analysis of the deposited data

Results flagged for a closer look

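In 14 of 124 groups of 6 libraries looked at, the highest or lowest library lay far from the other 5, by a rule that chance meets in about 5% of groups. The groups are those of the 27 tested members and of H2-T10, Ciita, H2-Ob and H2-DMb2, to which many of the 14 belong. H2-T10, H2-Ob and H2-DMb2 were added after their values were seen, so the 14 cannot be set against the 5%. Control 6 did so for 5 genes: it was high for H2-Bl (2.31 RPKM, the next control at 1.02), H2-D1 (116 RPKM, next 86.6), H2-Q4 (9.91 RPKM, next 7.57) and H2-T10 (2.71 RPKM, next 0.276), and low for H2-T23 (33.1 RPKM, next 48.3). At 2 g/L, where libraries 73, 74 and 75 share values with control 6, library 77 was high for H2-K1 (163 RPKM, next 124) and H2-Q9 (3.69 RPKM, next 2.59), and library 75 for H2-DMa (1.09 RPKM, next 0.577).

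Library 53 of 1 g/L was high for Ciita (0.575 RPKM, next 0.270), H2-Ob (0.740 RPKM, next 0.179) and H2-DMb2 (1.29 RPKM, next 0.247). Library 101 of 3.5 g/L was high for H2-Ob (0.516 RPKM, next 0.0929) and H2-DMb2 (0.707 RPKM, next 0.200). H2-T10 was low in library 49 of 1 g/L, at 0.0774 RPKM with the next at 0.225, a level at which few reads are involved.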

How the results depend on the processing

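No paired analysis was possible because the doses share no replicate numbers. For 1 g/L against control, 0 members were called under every alternative run. For 3.5 g/L against control, 8 to 11 were called under the alternatives run, and 8 to 10 when single libraries were left out. Leaving out single libraries gave 4 to 6 members at 2 g/L against control, 5 to 9 at 2 against 1 g/L, 2 to 5 at 3.5 against 2 g/L and 8 to 10 for the slope. For 2 against control and for the slope over 0 to 2 g/L, 0 were called with the title tag as a term, and 0 with the tag and without the 4 libraries. For 2 against 1 g/L, 5 were called with no filter, 5 with only these doses fitted, 1 without the 4 libraries, 1 with the tag as a term, 1 within a tag, and 0 with the tag and without the 4. For 3.5 against 2 g/L, 2 were called with no filter, 3 with only these doses fitted, 3 with quantile normalization and 2 without the 4. Median-ratio factors moved the calls over all genes at 3.5 g/L to 23.5% higher and 23.3% lower, and quantile normalization to 21.9% and 22.1%. No single member changed direction while called. The cause was not tested. Depth limits Ciita, H2-Eb2, H2-Oa and the low H2-M genes, which rest on few reads.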
